A study of Saccharomyces cerevisiae with 6 samples.

Results

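The transcriptome of baker's yeast, Saccharomyces cerevisiae, was measured after 120 min of aeration and set against pooled RNA from anaerobic cultures before air was admitted. The sample is the latest of 5 aeration times in the series. All genes with a value in it were taken, which gave 6264 of the 6470 genes or unnamed features on the array, 5596 of them with a gene symbol and 668 without. Cultures of 100 ml were grown in anaerobic bottles of synthetic complete medium that had been purged with nitrogen and reduced with dithionite, with ergosterol and unsaturated fatty acids supplied, up to exponential phase at an optical density of 1.0. The strain is not named in the labels. The aerated RNA came from a 50 ml aliquot aerated for 120 min, and the comparator was a pool of RNA from aliquots taken at 0 min, so that each ratio carries the history of anaerobic growth on both sides. By their source names, the other samples are 5, 10, 20 and 60 min of aeration, from separate flasks, and the pool hybridised against itself. Further label text conflicts with these names. For 60 min the extraction note mentions 20 min, and for 5 min the wording is that given for the pool against itself. The source names were followed, and which label is right was not tested. The series consists of 11 two-colour arrays, and the dye-swapped arrays of each aeration time were condensed by the submitters into a single column.

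Each value printed is a log2 ratio, aerated over pool, obtained from a deposited number read as a natural log. The log base and the direction are not stated in the labels. The direction is likely from the sample titles, and turning it would change the sign of every value below. There is 1 sample at 120 min, so the ratios themselves have no replicate check, no error and no test. The single test reported is of the difference between 120 min and the other aeration times. Genes were called at 2-fold from the pool, a descriptive limit. A ratio of bulk RNA cannot tell less transcript per cell from fewer cells that carry it.

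Yeast needs molecular oxygen to make heme, sterols and unsaturated fatty acids, and it switches whole gene families when oxygen is lost. With oxygen, heme activates Hap1, which raises the repressor Rox1, and Rox1 keeps hypoxic genes silent. Without oxygen, falling sterols activate Upc2, which turns on sterol uptake and the DAN/TIR mannoproteins that rebuild the cell wall. Respiration, metal uptake and antioxidant defence are further functions tied to oxygen.

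At 120 min 92 genes (1.47%) were at least 2-fold above the pool and 108 (1.72%) at least 2-fold below it, or 200 of 6264 in all (3.19%). In the self-hybridisation, in which no gene differs, 36 of 3521 genes were that far above 0 (1.02%) and 105 that far below (2.98%), 4% in all, but that sample is a single array and not a condensed pair. Beyond 4-fold, 4 genes lay above the pool and 10 below. The values just inside the 2-fold limit were 1.0001 for VMR1 and -1.0015 for ADE2, and those just outside were 0.9986 for PIR3 and -0.9993 for ADE17. Of the 200 genes, 117 had a value in the self-hybridisation, and 5 of these were 2-fold from 0 there. The latter were UTP23 at -2.25, TIS11 at -1.44, NQM1 at -1.21, YOR192C-A at -2.08 and YMR046C at 1.12. No self-hybridisation value was present for 56.5% of the genes above the pool and for 28.7% of those below, beside 43.8% of all genes. The part of weak signal in the higher genes was not tested. Each count of list members past 2-fold given below is to be read beside the shares of all genes, 1.47% above and 1.72% below. At 60 min 24.3% of genes were at least 2-fold from the pool, beside 2.09%, 4.96% and 4.74% at 5, 10 and 20 min. Single values at 60 min, and steps from 60 to 120 min, are to be read beside that wider spread, whose source was not tested.

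**Figure D1:**
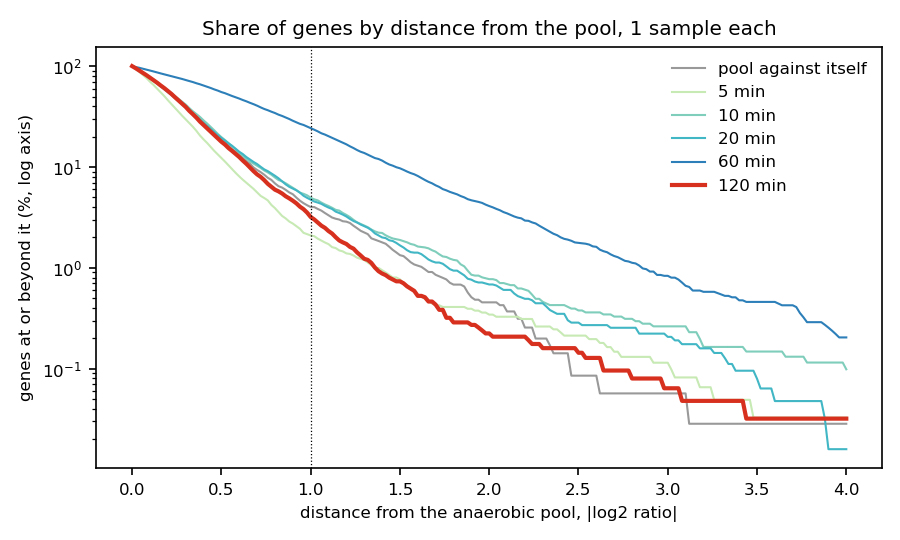
Share of genes (percent, log axis) at or beyond a given distance from the anaerobic pool (absolute log2 ratio), 1 line per sample; the dotted line marks 2-fold. The 120 min line crosses it at 3.19%, near the 4% of the pool hybridised against itself and below the 24.3% of the 60 min sample.

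The hypoxic cell wall had the lowest median of the 54 lists at 120 min. TIR1, a mannoprotein of the anaerobic cell wall, was the lowest gene of all, at -5.97, a 62.8-fold lower level, after 2.24, -4.25, -2.83 and -4.46 at the earlier times (5, 10, 20 and 60 min, in that order here and below), and at -0.11 in the self-hybridisation. DAN1, of the same family, was at -3.42 after 1.96, -3.77, -3.51 and -2.08, and TIR3 at -2.63 after 1.92, -1.33, -2.07 and -1.27. TIR2 stood at -1.33 and TIR4 at -1.23, and these genes lie next to each other on the chromosome. Of the 7 measured members of the DAN/TIR list 5 were 2-fold below the pool and 0 above, with a median of -1.33 beside -0.01 for all genes. The exceptions were PAU23, also known as DAN2, at -0.34 and DAN4 at 0.10. At 5 min TIR1, DAN1, TIR3, TIR2 and TIR4 had all been above the pool, between 1.67 and 2.24, and from 10 min on all were below it.

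Seripauperins, the PAU genes, are a subtelomeric family of near-identical cell wall proteins whose spots can take up RNA of one another. Of 18 measured members 17 were below 0, with a median of -0.39, and 3 were 2-fold below the pool. These were PAU6 at -1.29, PAU5 at -1.20 and PAU3 at -1.11, which had stood at 1.40, 1.57 and 1.55 at 5 min. The highest was PAU22 at 0.13. Among cell wall genes used in air or under both conditions the median was 0.01 in 13 members, and the single member past the limit was TIP1, a relative of the TIR genes, at -1.08. CWP2 lay at 0.59 and PIR3 at 0.9986, and both encode cell wall proteins of aerobic growth.

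Heme synthesis showed a single strong member. HEM13, the oxygen-requiring coproporphyrinogen oxidase and a classic Rox1 target, was at -3.06, an 8.36-fold lower level, after 1.32, -0.92, -2.66 and -1.71, and at 0.02 in the self-hybridisation. HEM14, which acts at the next oxygen-requiring step, was at -0.69, and HEM15, ferrochelatase, at -0.53. The remaining heme genes stood between -0.24 for HEM2 and 0.21 for HEM3, and the list had a median of -0.12 in 9 members. ROX1 itself was at 0.80, lower than its 2.69 at 5 min and 2.29 at 10 min. Of the cytochrome c isoforms, hypoxic CYC7 was at -1.13, after 0.53, -0.11, -1.25 and -2.47. Its aerobic counterpart CYC1 stood at 0.69, after -1.19, 1.76, 3.16 and 2.61. The subunit pair of cytochrome oxidase was ordered alike, with COX5B, the hypoxic form, at -0.43 and COX5A at 0.94. ANB1, the hypoxic translation factor eIF5A, was at -0.61, while AAC3, the hypoxic ADP/ATP carrier, was at 0.51. Of the 14 genes listed as Rox1-repressed 12 were below 0, with a median of -0.51, and 4 were 2-fold below the pool (TIR1, DAN1, HEM13 and CYC7).

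Sterol genes were lower as a list without large single values. Of 27 ergosterol synthesis genes 23 were below 0, with a median of -0.37, and their medians at 5, 10, 20 and 60 min were 0.41, 0.03, -0.10 and 0.12. ERG28, a scaffold of the demethylation enzymes, was at -1.21 and the only member 2-fold from the pool. ERG6, the sterol methyltransferase, was at -0.98, CYB5, cytochrome b5, at -0.93 and NCP1, the reductase that feeds Erg11, at -0.91. The enzymes best known as control points stood nearer the pool, with ERG11 at -0.18 and HMG1 at -0.04, while HMG2, the form made under low oxygen, was at -0.58. IDI1, isopentenyl diphosphate isomerase, was highest at 0.66. UPC2, the sterol sensor, was at -0.34 after -1.61 at 20 min, and the sterol importers AUS1 and PDR11 were at -0.07 and -0.10. OLE1, the fatty acid desaturase that needs oxygen, was at -0.01 after -1.26 at 20 min, and 0 of 17 fatty acid genes were 2-fold from the pool.

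**Figure D2:**
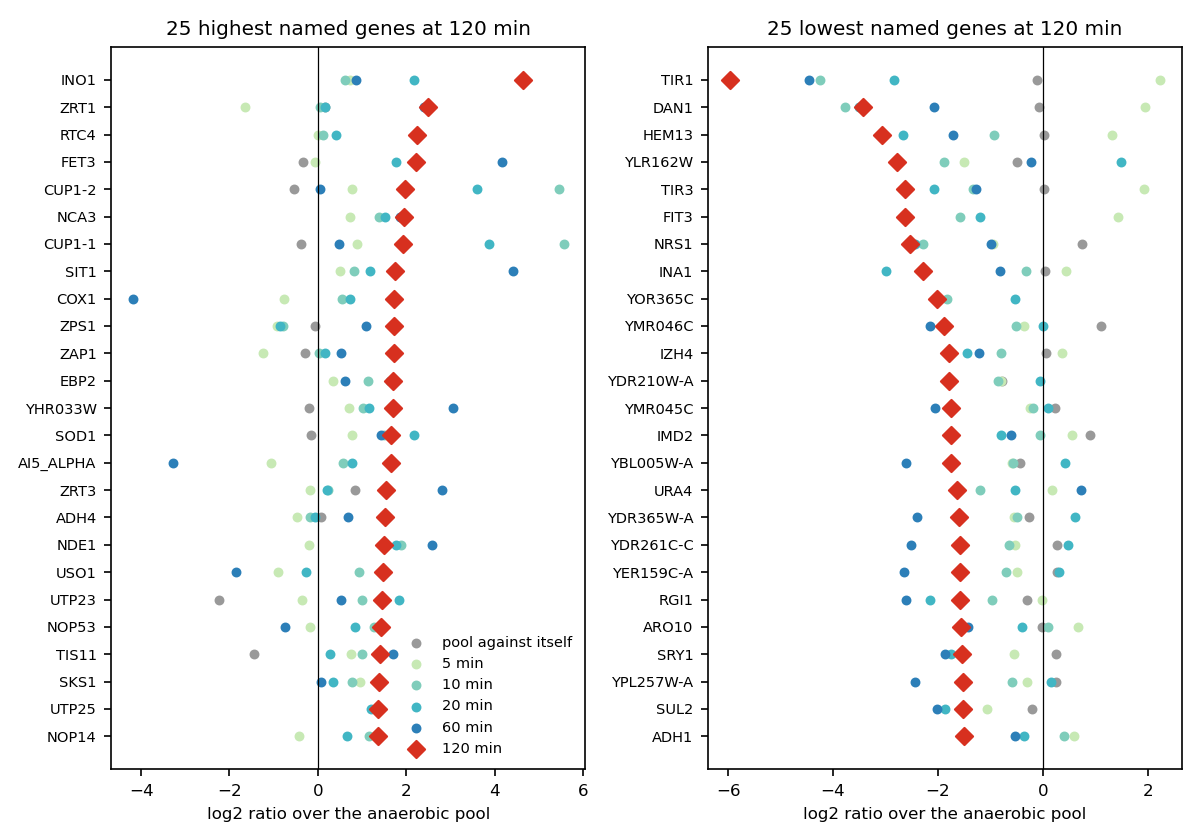
The 25 highest and the 25 lowest genes with a symbol at 120 min (red diamonds), with their log2 ratios at 5, 10, 20 and 60 min and in the pool against itself (circles). INO1 leads at 4.64 and TIR1 closes at -5.97; a missing circle is a missing value.

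INO1, inositol 3-phosphate synthase, which makes inositol from glucose 6-phosphate, was the highest gene at 120 min, at 4.64, a 24.9-fold higher level. It had been at 0.73, 0.61, 2.18 and 0.87 at 5, 10, 20 and 60 min and had no value in the self-hybridisation. INO1 is the textbook target of the activators Ino2 and Ino4, which are held back by Opi1 when inositol is plentiful. Of the 27 measured genes of phospholipid synthesis under this control 23 were above 0, with a median of 0.49, and 5 were 2-fold above the pool and 0 below. The others past the limit were ITR1, the inositol permease, at a 2.3-fold higher level, CDS1, CDP-diacylglycerol synthase, at 1.15, URA7, CTP synthase, at 1.09 and GIT1, the glycerophosphoinositol permease, at 1.05. The route from CDP-diacylglycerol to phosphatidylcholine was above 0 at all of its 5 listed genes, from 0.42 for CHO2 to 1.15 for CDS1, with PSD1 at 0.94, CHO1 at 0.86 and OPI3 at 0.76. OPI1, the repressor, was itself at 0.90, whereas INO2 was at -0.04 and INO4 at 0.45. In the self-hybridisation the list had a median of 0.12.

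Zinc uptake genes followed INO1 in the ranking. ZRT1, the high-affinity zinc transporter, was the second highest gene at 2.48, after -1.64, 0.06, 0.17 and 2.39, and at 0.16 in the self-hybridisation. ZAP1, the zinc-sensing activator of ZRT1 and of its own gene, was at 1.71 after -1.24, 0.03, 0.16 and 0.53, and ZRT3, which releases zinc from the vacuole, at 1.54. ZRT3 had been at 2.81 at 60 min and had 0.85 in the self-hybridisation. ZRT2, the low-affinity transporter, was at 0.41. Further genes known to be switched on in zinc-limited yeast were RTC4 at 2.23, ZPS1 at 1.72 and ADH4 at 1.52. RTC4 had been near the pool at 5, 10 and 20 min, between 0.01 and 0.42, and had no value at 60 min. ADH4, an alcohol dehydrogenase, is the chromosomal neighbour of ZRT1. ADH1, the main fermentative alcohol dehydrogenase and a zinc enzyme that is known to be repressed under zinc limitation, was at -1.51, after 0.59, 0.40, -0.37 and -0.53. Of 11 zinc transporters and regulators 3 were 2-fold above the pool and 0 below, with a median of 0.19. The wider list of 31 genes under Zap1, which also holds INO1, had a median of 0.31, with 22 above 0 and 9 below. In that list 7 genes were 2-fold above the pool and 1 was 2-fold below. Whether zinc was limiting was not tested. The zinc exporter to the vacuole, ZRC1, was at 0.19, and FET4, a low-affinity transporter for iron, zinc and copper, at -0.30. IZH4, a membrane protein linked to zinc and sterol metabolism, was far below the pool, at -1.79.

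Iron genes went in both directions. FET3, the multicopper oxidase of high-affinity iron uptake, which consumes oxygen, was at 2.22 and its partner permease FTR1 at 0.94. SIT1 and ARN1, which import iron bound to siderophores, were at 1.75 and 1.24, and TIS11, which sheds messages of iron-using proteins, at 1.40. FET3 and SIT1 had been further above the pool at 60 min, at 4.17 and 4.41, and FET3 had been at -0.07 at 5 min. FIT3, a cell wall mannoprotein that holds siderophores, was at -2.62, although it belongs to the same Aft1 regulon, and had been at 1.44 at 5 min and between -1.19 and -2.64 from 10 to 60 min. FIT1 and FIT2, its relatives, were at -0.67 and -0.63, and the reductase FRE1 at -1.02. Of 34 measured members 4 were 2-fold above the pool and 2 below, with a median of 0.14 beside 0.26 in the self-hybridisation.

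Copper genes also lay on both sides. The metallothionein Cup1, which binds copper, is encoded by repeated genes whose spots share RNA, and CUP1-1 and CUP1-2 were at 1.92 and 1.96, after 5.56 and 5.47 at 10 min. CTR1, the high-affinity copper transporter, was at -1.41 and was below the pool at every earlier time, between -1.15 and -2.42. The other copper transporters, CTR2 and CTR3, were at 0.25 and 0.02. Copper chaperones differed, with ATX1 and COX17 both at 0.61 and CCS1 at -0.62. The list held 3 genes 2-fold above the pool (CUP1-1, CUP1-2 and SOD1) and 2 below (CTR1 and FRE1), of 14 measured. SOD1 and FRE1 are also counted among the antioxidant and iron genes. The copper median was 0.34 beside -0.27 in the self-hybridisation.

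**Figure D3:**
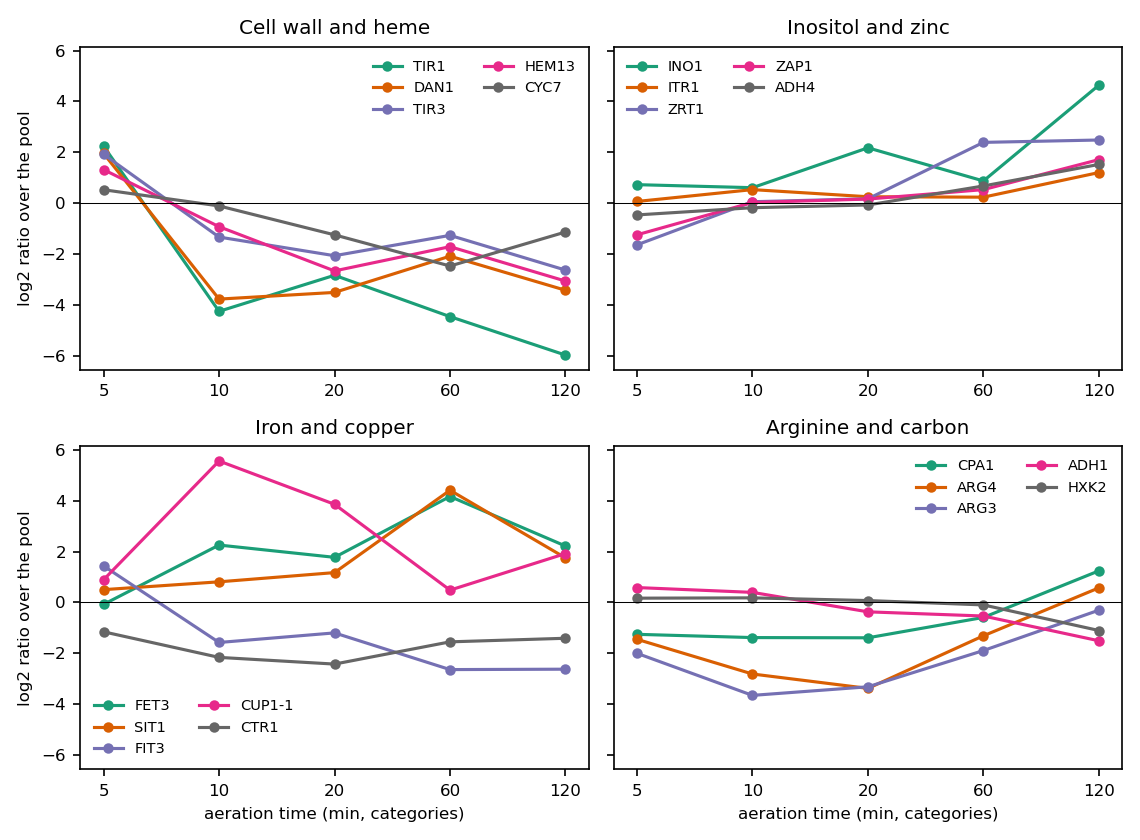
Log2 ratios over the anaerobic pool of 20 genes at the 5 aeration times (categories on the x axis, 1 sample each, lines join the same gene). TIR1 stands at -5.97 and INO1 at 4.64 at the last time, and ARG4 stands at 0.58 after -3.38 at 20 min.

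Antioxidant genes lay mostly near the pool at 120 min, with 2 of 31 measured members 2-fold above it, 0 below and a median of 0.11. SOD1, the copper and zinc superoxide dismutase, was at 1.65, after 0.78, 1.48, 2.18 and 1.42, and at -0.15 in the self-hybridisation. GPX2, a glutathione peroxidase, was at 1.36, after 2.72, 4.85 and 5.57 at 5, 10 and 20 min. The peroxiredoxin genes TSA1, AHP1 and PRX1 lay at 0.74, 0.75 and 0.75, below their 20 min values of 2.25, 2.04 and 1.53. TRR1, thioredoxin reductase, was at -0.06 after 2.33 at 20 min, and SRX1, sulfiredoxin, at 0.44 after 2.17 at 5 min. SOD2, the mitochondrial superoxide dismutase, was at 0.32, and the catalase genes CTT1 and CTA1 were at 0.21 and -0.15. DOT5, a nuclear peroxiredoxin, was the lowest, at -0.63.

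Nuclear genes for the respiratory chain and ATP synthase were moderately above the pool. The highest was NDE1, the external NADH dehydrogenase, at a 2.83-fold higher level, followed by CYB2, the lactate dehydrogenase that reduces cytochrome c, at 1.06. Of 30 respiratory chain genes 26 were above 0, with a median of 0.47, 2 were 2-fold above the pool, and CYC7 was the single gene 2-fold below. Complex III was above 0 at all 9 subunits, from 0.09 for QCR6 to 0.89 for QCR7. Succinate dehydrogenase was above 0 at 4 of 4, from 0.08 for SDH1 to 0.60 for SDH4. Nuclear complex IV subunits of the aerobic enzyme ran from -0.06 for COX6 to 0.94 for COX5A. ATP synthase genes had the highest median of the lists, 0.67 in 16 members with 15 above 0, led by ATP3 at 1.02 and ATP7 at 1.02. Their median in the self-hybridisation was -0.48, and at 5, 10, 20 and 60 min it was 0.06, 0.44, 0.29 and 0.27. The low member was STF2, a stabilising factor and stress gene, at -0.58. HAP4, the activating subunit of the factor that drives respiratory genes, was at 0.85 after -1.16 at 60 min. Other nuclear lists tied to respiration did not stand as high. Coenzyme Q synthesis had a median of -0.24 in 11 members, 7 of them below 0. Cytochrome oxidase assembly factors had a median of 0.08 in 29 members, with 18 above 0 and 11 below.

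Transcripts of the mitochondrial genome were led by COX1, subunit 1 of cytochrome oxidase, at 1.72, with the intron reading frames AI5_ALPHA at 1.65 and AI4 at 1.27, which share its primary transcript. COX1 and its intron frames, 7 features in all, were above 0, from 0.55 for AI3. COX1 had been at -0.76, 0.54, 0.72 and -4.19 at the earlier times. The other subunits were closer to the pool, with COX2 at 0.07, COX3 at 0.00, COB at 0.41, ATP6 at 0.46 and OLI1 at 0.29. In all 16 of 17 measured features were above 0, with a median of 0.46, and VAR1, a mitochondrial ribosomal protein, was at -0.22. Of these features 1 had a self-hybridisation value. Genes for the mitochondrial ribosome had a median of 0.18 in 74 members with 0 past 2-fold, and those of the citric acid cycle 0.27 in 18 with 0 past 2-fold. With the self-hybridisation subtracted, the citric acid cycle median was 0.06 over the 14 genes with both values.

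In carbon metabolism single genes stood out on both sides. HXK2, the main hexokinase and a glucose sensor, was at -1.10 and had been between -0.10 and 0.18 at all earlier times. ADH2, the dehydrogenase that consumes ethanol, was at -1.37, beside ADH1 at -1.51, and had 0.69 in the self-hybridisation. These enzymes are close in sequence, and their spots can take up RNA of each other. ADH4, in the same list, was its highest gene at 1.52. Other glycolytic and fermentative genes were nearer the pool, with TDH3 at -0.20, PGK1 at -0.08 and PDC1 at 0.09, and the list had a median of -0.21 in 30 members, 1 of them above and 2 below the limit, and was 0.21 in the self-hybridisation. GPD2 and GPP1, which make glycerol under anaerobic conditions, were at -0.82 and -0.46, and GPD2 had -1.03 in the self-hybridisation. Hexose transporters HXT5 and HXT7, both linked to low glucose, were at 1.10 and 1.04, and HXT4 was at 0.69 after 2.74 at 10 min. The list of hexose transporters and glucose signalling had a median of 0.09 in 28 members, beside 0.25 in the self-hybridisation. Of these genes 2 were 2-fold above the pool and 1 below. Among 25 genes of the glucose-repressed list 0 were 2-fold above the pool and 1 below, with a median of -0.06. ALD4, the mitochondrial aldehyde dehydrogenase, was at 0.74. ARO9 and ARO10, an aminotransferase and a decarboxylase that turn aromatic amino acids into fusel alcohols, were at -1.34 and -1.56. Both had been within -0.39 to 0.67 at 5, 10 and 20 min, and ARO10 was already at -1.43 at 60 min.

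Ribosome biogenesis and ribosomal protein genes stood apart from each other at 120 min. Of 124 biogenesis factors 112 were above 0, with a median of 0.59 and quartiles of 0.27 and 0.85. Of these factors 17 were 2-fold above the pool, 13.7% of the list beside 1.47% of all genes, and 0 were 2-fold below. The highest was EBP2, needed for the large subunit, at 1.70. Next came UTP23 at 1.45, NOP53 at 1.43, NOP14 at 1.36, NOP16 at 1.36, NOP4 at 1.34 and MAK21 at 1.30, and the lowest was NOP2, an rRNA methyltransferase, at -0.48. Their median was 0.01, 0.55, 0.83 and 0.61 at the earlier times, and -0.17 over the 46 genes with a self-hybridisation value. The 7 subunits that belong to RNA polymerase I alone ran from 0.56 for RPA190 to 1.15 for RPA43, with a median of 0.95. The 6 subunits of TFIIIC, which recruits RNA polymerase III, ran from 0.09 to 0.48. Cytosolic ribosomal protein genes had a median of -0.11 in 136 members, with 91 below 0, quartiles of -0.25 and 0.04 and 0 past 2-fold in either direction. The ribosomal protein median in the self-hybridisation was -0.11 as well, and the median of all genes at 120 min was -0.01.

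**Figure D4:**
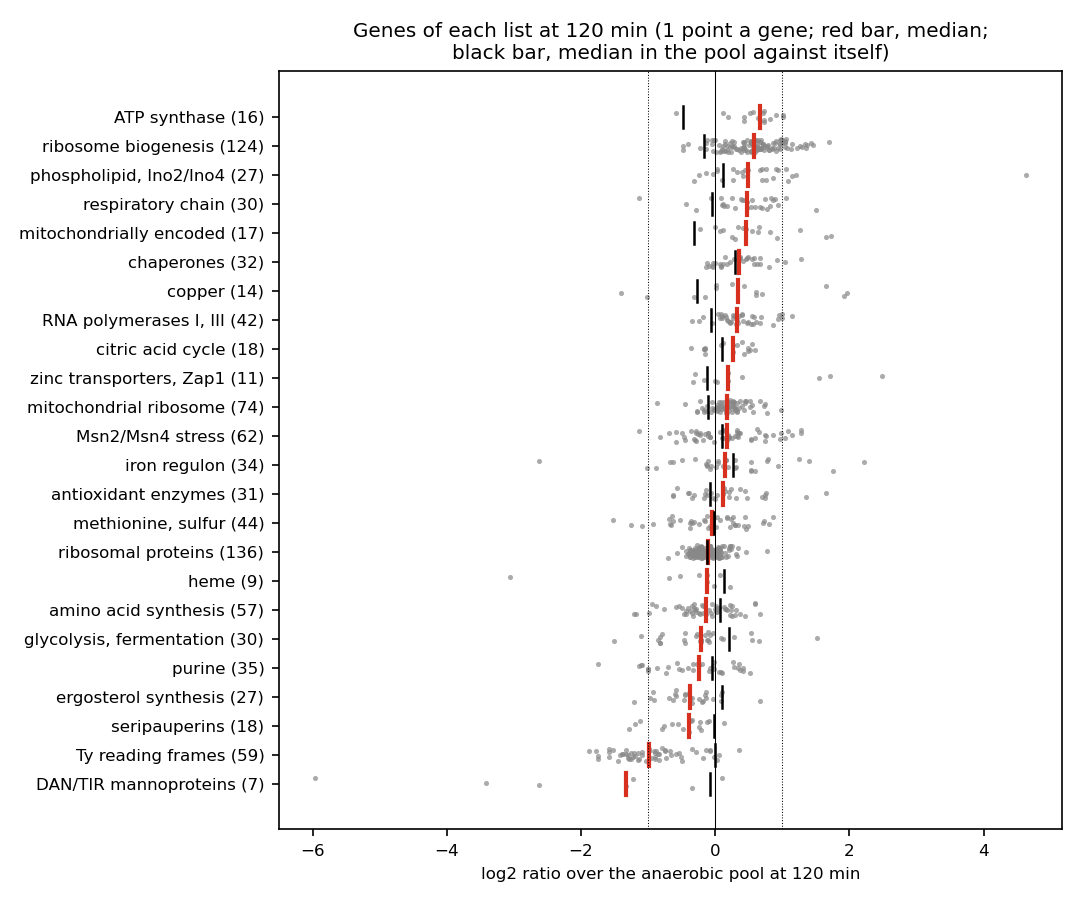
Log2 ratios at 120 min of the genes of 24 lists (1 grey point a gene, members measured in brackets), with the list's median at 120 min (red bar) and in the pool against itself (black bar); dotted lines mark 2-fold. DAN/TIR genes have the lowest median, -1.33, and ATP synthase the highest, 0.67.

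Amino acid genes lay on both sides of the pool. Of 57 genes of amino acid synthesis under Gcn4 the median was -0.14, with 2 members 2-fold below the pool, SER2 at -1.21 and SER33 at -1.18, both of serine synthesis, and 0 above. The highest was ILV2, acetolactate synthase, at 0.67. SER1 and SER3 were at -0.76 and -0.94, so that the whole pathway was below 0. In sulfur assimilation SUL2, a sulfate permease, was at -1.52, MUP3, a methionine permease, at -1.25 and MET10, a sulfite reductase subunit, at -1.09, while MUP1, the high-affinity methionine permease, was at 0.81 and CYS4, cystathionine synthase, at 0.87. The 44 genes of that list had a median of -0.05, against -0.58, -0.67 and -0.55 at 10, 20 and 60 min. In the list of arginine synthesis and breakdown 1 of 18 genes was 2-fold above the pool and 0 below, with a median of 0.04. CPA1, a subunit of carbamoyl phosphate synthetase, was at 1.24 after -1.25, -1.38, -1.39 and -0.59, and ARG4, argininosuccinate lyase, at 0.58 after -1.45, -2.81, -3.38 and -1.31. ARG3, ornithine carbamoyltransferase, was at -0.30 after -3.65 at 10 min. The synthesis genes ARG1, ARG2, ARG7 and ARG8 were also below 0, at -0.30, -0.26, -0.33 and -0.59. CAR1 and CAR2, of arginine breakdown, were at 0.97 and 0.23.

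Nucleotide synthesis was lower at several steps. IMD2, IMP dehydrogenase, was at -1.75, with 0.90 in the self-hybridisation, and has near-identical relatives. Of 10 genes named ADE 9 were below 0, with a median of -0.93, among them ADE3 at -1.13, ADE13 at -1.09 and ADE2 at -1.0015, and ADE16 was at 0.08. MTD1, of one-carbon metabolism, was at -1.10. In the purine list 5 of 35 genes were 2-fold below the pool and 0 above. For pyrimidines URA4, dihydroorotase, was at -1.64 and URA8, the minor CTP synthase, at -1.43, whereas URA7, the major CTP synthase, was at 1.09 and FUR4, uracil permease, at 1.05.

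Reading frames of Ty retrotransposons, mobile elements present in many near-identical copies, were the largest group of low features. Of 59 measured frames 56 were below 0 and 28 were 2-fold below the pool, 47.5% beside the 1.72% of all genes, with a median of -0.99. The lowest were YMR046C at -1.89, YDR210W-A at -1.78, YMR045C at -1.75 and YBL005W-A at -1.75. The highest, YJL113W, of a Ty4 element, was at 0.35. The median was -0.25, -0.34, 0.12 and -2.40 at 5, 10, 20 and 60 min and -0.01 in the self-hybridisation. Spots of near-identical copies share RNA, so these 28 frames are not independent observations. The list was put together after the values were seen.

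Stress genes of the factors Msn2 and Msn4 had a median of 0.17 in 62 members, with 5 above and 1 below the limit, after -0.48 and -0.70 at 20 and 60 min. FMP16 was highest at 1.28, followed by HSP26, a small heat shock protein, at 1.27, HSP30, a membrane heat shock protein, at 1.14, NQM1 at 1.09 and HSP12 at 1.04. Chaperone genes had a median of 0.36 in 32 members, but also one of 0.30 in the self-hybridisation. Core histone genes were between -0.27 for HTA2 and 0.60 for HHT1, with a median of 0.29 in 8 members, beside -0.53 for the wider histone list at 10 min. Of genes with a symbol and at least 2-fold from the pool, 30 above and 36 below belonged to none of the lists. NCA3, a cell wall protein first linked to ATP synthase expression, was the highest of them at 1.95, with 0.73, 1.38, 1.51 and 1.87 before. YHR033W was at 1.69 and USO1, of vesicle docking, at 1.48. The lowest were YLR162W at -2.79, NRS1 at -2.53 and INA1 at -2.28.

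Whether 120 min differed from the earlier times was tested in limma as the 120 min value minus the mean of 5, 10, 20 and 60 min, a difference in which the pool cancels. The lone 120 min sample was assumed to vary like the other 4, whose spread includes their own course over time. Of 5771 genes with all 5 values 0 (0%) passed at an adjusted p under 0.05, and 75 (1.3%) had an unadjusted p under 0.05, of which 47 were higher and 28 lower at 120 min. With 1 sample against 4 different times this test shows neither that a gene is particular to 120 min nor that none is. The smallest p was that of CPA1, with a difference of 2.40 ± 0.42 (SE) from a mean of -1.15 to 1.24 (limma, adjusted p = 1). INO1 was next, with a difference of 3.54 ± 0.64 from a mean of 1.10 to 4.64 (limma, adjusted p = 1). CPA1 and INO1 were above all 4 of the other times. QDR3, a drug exporter, differed by 1.80 ± 0.36, PKP2, a mitochondrial protein kinase, by 1.40 ± 0.31, MUP1 by 1.52 ± 0.40 and ALD5, a mitochondrial aldehyde dehydrogenase, by 1.26 ± 0.34. HXK2 was the leading gene on the lower side, at -1.18 ± 0.32, and was below all 4 of the other times. ARG4 differed by 2.81 ± 0.84 and DST1, transcription elongation factor TFIIS, by 3.19 ± 0.90, from a mean of -3.21 to -0.02. With limma's array weights CPA1 passed (adjusted p = 0.0414), as the single gene of 5771.

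By list, the largest median differences between 120 min and the other times were 0.96 for mitochondrially encoded genes and -0.94 for DAN/TIR genes, beside -0.03 for all genes, over 11 and 7 genes. Both depended on the 5 min sample, without which they were 0.41 and -0.27. Genes of amino acid synthesis were higher at 120 min by a median of 0.40, over 56 genes. The values were 0.44 for methionine and sulfur metabolism and 0.40 for arginine metabolism, over 43 and 18 genes. Without the 60 min sample the arginine value was 0.25. Histone genes differed by a median of 0.50 over 10 genes, and genes for flocculins and adhesins by -0.48 over 11. Neither value was recalculated without single times. The flocculin and adhesin median was -0.16 at 120 min, after 0.07, 0.09, -0.02 and 0.60, so the 60 min sample was the furthest from it. Ergosterol genes were lower by 0.45 and seripauperins by 0.51 (medians of -0.45 and -0.51), over 27 and 17 genes. The seripauperin value was -0.32 without the 5 min sample. The Ino2/Ino4 list was higher by 0.45, over 26 genes.

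**Figure D5:**
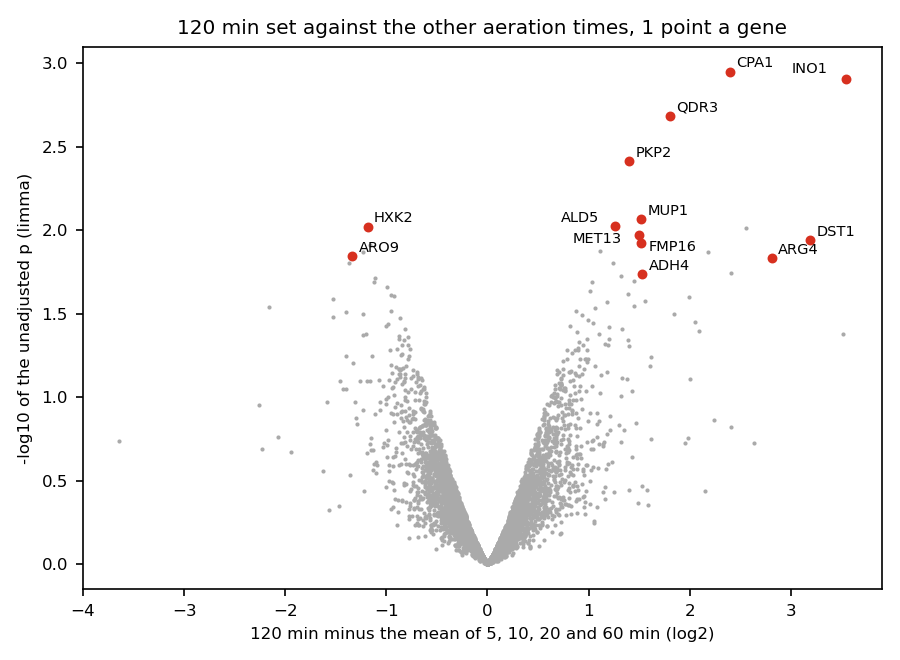
Difference between 120 min and the mean of the other 4 aeration times (log2, x axis) against -log10 of the unadjusted limma p (y axis), 1 point a gene of 5771, with 13 genes in red. CPA1 and INO1 have the smallest p, and 0 genes passed after adjustment.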

How the data were processed

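The deposited table holds 1 column of log ratios for each of the 6 samples. Per the series' design text the authors condensed the dye-swap arrays of a time while normalizing. How background was corrected and which values were filtered is not given in the sources used here. The values deposited by the authors were taken as natural log ratios because the lowest, -4.6051702, equals the natural log of 0.01, and were divided by 0.6931 to give log2 ratios. Had the authors used log2, each log2 value printed would have to be multiplied by 0.6931. Signal and background intensities were not used, so the precision is limited by the number of arrays.

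Of 6495 features 5754 had 1 symbol in the platform annotation, 0 several and 741 none; all 5754 matched the R64 reference table by gene identifier, which served for names and for the order of neighbouring genes. Features of 25 genes were averaged.

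Counts at 2-fold carry no test. The 120 min value was compared with the mean of the other times with limma 3.58.1 in R 4.3.3, intercept and an indicator of 120 min. The test was two-sided, with Benjamini-Hochberg adjustment over 5771 genes and a threshold of 0.05. In a check on simulated data it recovered 48% of genes shifted by a log2 of 2 and 81% of those shifted by 4, with 3 false calls. Genes named were the 25 highest and 25 lowest with a symbol, members of lists past 2-fold, leading and defining members of each list, and those with the smallest p. The 54 gene lists, written from textbook knowledge, and the genes were chosen with earlier results of these data known; the lists of Ty frames, mitochondrially encoded genes and amino acid breakdown were added after the values were seen. Many lists share members, so their counts cannot be added. Of the 14 genes listed as Rox1-repressed 13 were also in another list, and of the 11 zinc transporters and regulators 10. Sequences were not used here.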

Additional observations from a re-analysis of the deposited data

How the results depend on the processing

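No paired analysis was possible because each aeration time has 1 sample. The counts depended on the fold and the log base more than on centring. Reading the deposited values as log2 left 22 genes 2-fold above and 28 below the pool. At 1.5-fold there were 448 above and 381 below, and at 3-fold 17 and 18. Keeping the 3485 genes measured in all 6 samples gave 40 above and 77 below, and keeping those within 2-fold of 0 in the self-hybridisation gave 37 and 75. The share above the pool was 1.09% under the latter, beside 1.47%, and the share below 2.22%, beside 1.72%. Centring gave 100 and 105, and counting features without averaging 92 and 108. In the comparison of 120 min with the other times, 0 genes passed in limma when any 1 of the other times was left out, with 35 to 354 at an unadjusted p under 0.05, the latter without the 60 min sample. Likewise 0 passed with the samples scaled, centred or read as log2, and 1 with array weights. Subtracting the self-hybridisation value turned the sign of the median of 10 of the 54 lists; of these the iron regulon went from 0.14 to -0.04. The main medians of these 10 lists lay between -0.15 and 0.14. The DAN/TIR median moved to -2.65 over 5 genes and the mitochondrially encoded one to 0.96 over 1. Of lists that kept their sign, the Msn2/Msn4 median became 0.04, chaperones 0.06, ribosomal proteins -0.01, heme -0.52, glycolysis -0.41, sulfur metabolism -0.23, copper 0.78 and zinc transporters 0.42, each over the genes with both values. The list differences without each other time were added after seeing the data. Centring turned the sign for 2 lists, fatty acid synthesis (-0.01) and the proteasome (-0.01). Without signal intensities, the depth behind each ratio is unknown.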
